A study of Mus musculus with 10 samples.

Results

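Surface marker genes that are commonly used to gate fibroblasts of pancreatic tumours in or out were followed across sorted fibroblast fractions, 10 in all: Thy1, Pdpn, Fap, Eng, Ly6c1, Ly6c2, Ly6a, Epcam, Ptprc and Pecam1. They were chosen by name, with earlier results of these data known. They are 10 of the 48471 genes whose transcripts could be named, and 9 of them (all but Ly6c2) are among the 15378 genes that passed the filter on low counts. The libraries came from pancreatic ductal adenocarcinomas that grew in C57BL/6J mice after PDAC KPC T-LOH organoids had been placed orthotopically. Cells labelled as myofibroblastic cancer-associated fibroblasts (myCAFs) had been separated by flow cytometry into a CD90-negative and a CD90-positive fraction. Both fractions thus share the host strain, the organoid tumours and the myCAF gate, and differ by the CD90 sort. Each fraction has 5 libraries, 1 from each of 5 sets of tumour-bearing mice called pools 1 to 5 here, and the titles list 4, 1, 2, 3 and 1 animals in these pools, 11 in all, against 5 male mice in the design text. Not given in the sources used here are the animals' ages and the antibodies of the gate other than CD90. Where a library pools several animals, the spread between those animals cannot be seen.

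CD90, the product of Thy1, is a small glycoprotein held in the membrane by a glycosylphosphatidylinositol (GPI) anchor, and it marks fibroblasts, pericytes, some neurons and, in mice, T cells. Podoplanin (Pdpn), fibroblast activation protein (Fap) and endoglin (Eng) are other surface proteins by which tumour fibroblasts are picked out. In mouse pancreatic cancer, podoplanin-positive fibroblasts are commonly divided by the antigen Ly6C, with Ly6C-positive cells called inflammatory and Ly6C-negative cells called myofibroblastic. Antibodies to EpCAM (Epcam), CD45 (Ptprc) and CD31 (Pecam1) are commonly used to gate out epithelial cells, leukocytes and endothelial cells.

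The libraries differed in depth and in composition. Totals ran from 33316324 to 47709168 estimated counts in the CD90-negative fraction and from 11738491 to 38200464 in the CD90-positive fraction. Mitochondrial rRNA took 35.6% to 84.4% of the gene-assigned counts in CD90-negative libraries and 10.5% to 44.8% in CD90-positive libraries, and nuclear protein-coding genes received 3711407 to 19817780 counts in CD90-negative and 4571332 to 28520473 in CD90-positive libraries. Values below are CPM (counts scaled to a common TMM-adjusted library size) unless stated. A list of 10 common fibroblast markers had a summed level of 4082 to 20454 CPM in CD90-negative and 32557 to 54307 CPM in CD90-positive libraries. Collagen genes made up most of this sum. Of the 54307 CPM in the CD90-positive library of pool 1, Col1a1 held 24082, Col3a1 18373 and Col1a2 10709. Of these 10 genes 9 fell, beside 7.05% of all genes tested, and the list median log2 fold was -2.32, against 0.04 over all genes tested. The 4 of smallest p were the actin-binding Tagln (-2.93), the collagen chain Col1a2 (-2.28), the proteoglycan Lum (-2.23) and the matricellular Postn (-2.58). The 1 gene not called was Dcn (-1.90, edgeR adjusted p = 0.15). Pdgfra and Dcn overlapped between the fractions, with 183 and 220 CPM in the CD90-negative library of pool 3. Their lowest CD90-positive values were 86.5 CPM (pool 5) and 163 CPM (pool 4). Col3a1 and Dcn were named after their values were seen. Without pools 4 and 5, 3 of the 10 were called.

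Thy1 (ENSMUSG00000032011, chromosome 9) followed the sort in every pool. It stood at 16.0, 10.2, 8.06, 5.98 and 2.07 CPM in the CD90-negative libraries of pools 1 to 5, against 97.3, 102, 39.2, 89.8 and 117 CPM in the CD90-positive libraries. The fractions did not overlap: the highest CD90-negative library, of pool 1, lay below the lowest CD90-positive library, of pool 3. The log2 fold (CD90-negative over CD90-positive) was -3.50 (SE 0.50, edgeR quasi-likelihood test with the pool as a block, Benjamini-Hochberg adjusted p = 0.0056). Within pools, Thy1 was lower in the CD90-negative library by 6.08-fold, 10.0-fold, 4.86-fold, 15.0-fold and 56.4-fold. Thy1 RNA was still found in each CD90-negative library, with 56 reads in each of pools 4 and 5 and 305 to 465 in pools 1 to 3. In sorted bulk samples, fewer cells of a type and less RNA per cell cannot be told apart. A fit that also held the mitochondrial rRNA share gave -4.12 (SE 1.70, adjusted p = 0.75).

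**Figure D1:**
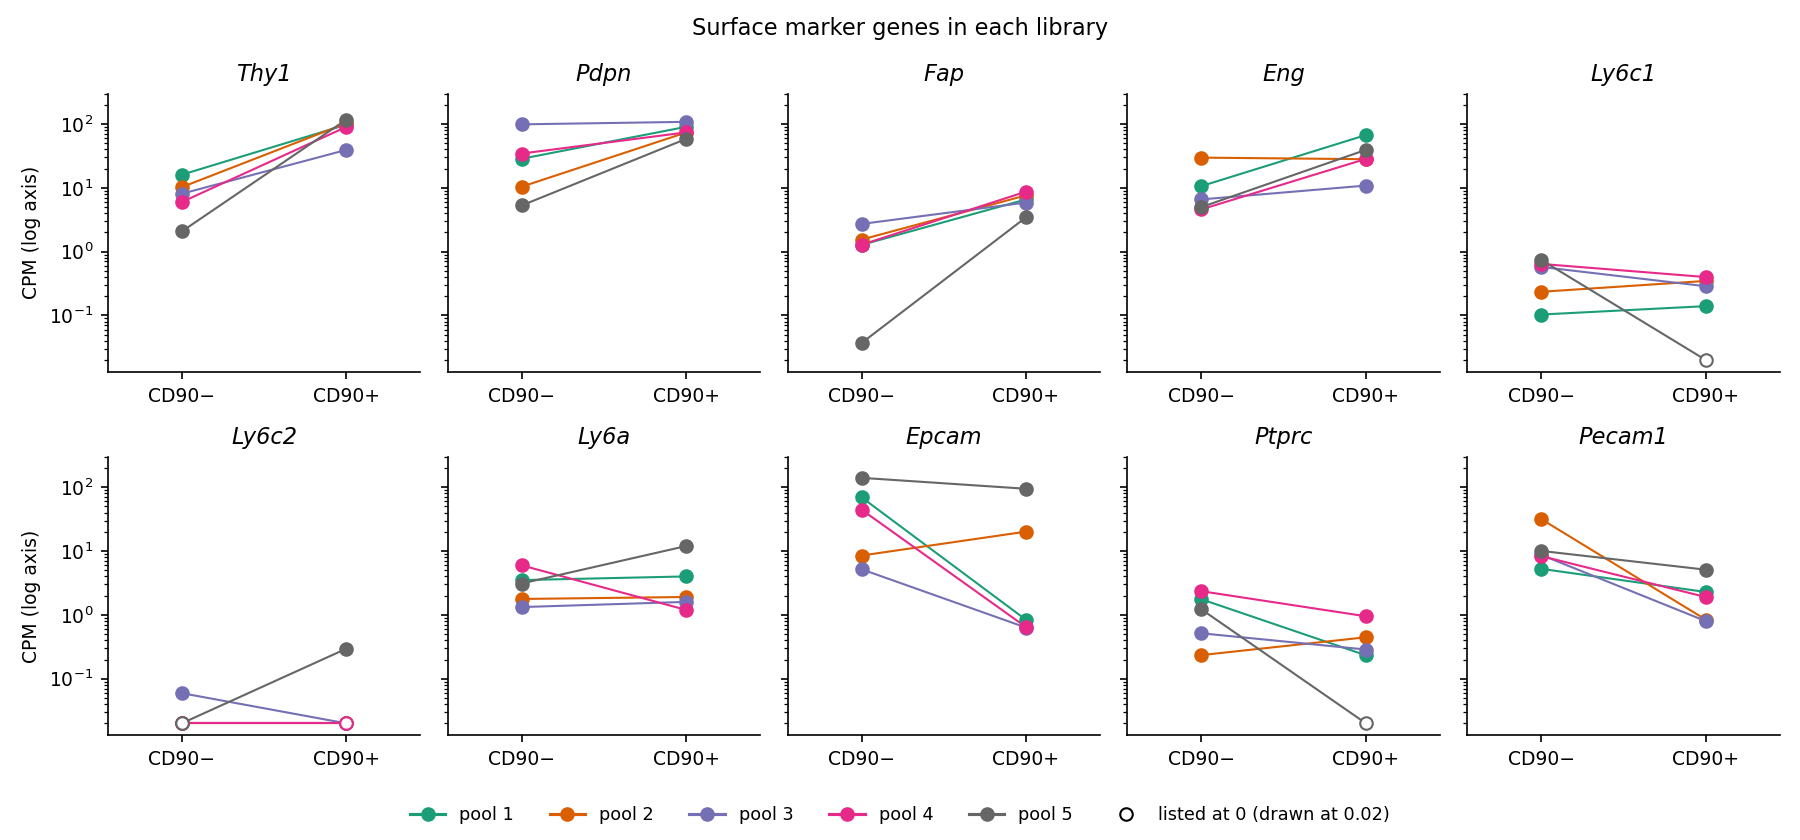
CPM of the 10 genes in each library on a log axis, CD90-negative left and CD90-positive right, with a line joining the libraries of a pool and open circles for values listed at 0. Thy1, at 2.07 to 16.0 against 39.2 to 117 CPM, Fap and Pecam1 do not overlap between fractions, whereas Epcam spans 5.19 to 140.5 against 0.63 to 94.7 CPM.

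Fap (ENSMUSG00000000392, chromosome 2), a serine peptidase of activated fibroblasts, was the other gene whose CD90-negative values all lay below the CD90-positive ones. It measured 1.27, 1.54, 2.71, 1.28 and 0.037 CPM in CD90-negative libraries of pools 1 to 5, against 6.57, 7.61, 5.87, 8.69 and 3.44 CPM in CD90-positive libraries. It fell by 2.64 on the log2 scale (SE 0.66, edgeR adjusted p = 0.0278) and was lower in 5 of 5 pools. The CD90-negative library of pool 5 held 1 Fap read. The call was lost without pool 1, 2 or 4 (adjusted p = 0.101, 0.0672 and 0.0928), without the block for the pool (0.0730) and with a transcript length offset (0.0673).

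Pdpn (ENSMUSG00000028583, chromosome 4), which encodes the mucin-like receptor podoplanin, was lower in 5 of 5 pools but by very different amounts. Its CD90-negative libraries held 28.5, 10.4, 98.6, 34.4 and 5.28 CPM in pools 1 to 5, and its CD90-positive libraries 90.1, 73.4, 108, 73.8 and 58.3 CPM. The fractions overlapped because of pool 3, where the difference was 1.09-fold, whereas pool 5 differed 11.0-fold. The log2 fold was -1.82 (SE 0.47, edgeR adjusted p = 0.0422). This call was lost without pool 1, 2, 4 or 5 (adjusted p = 0.119, 0.109, 0.0509 and 0.0717) and without the block (0.310).

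Eng (ENSMUSG00000026814, chromosome 2), a co-receptor for BMP and TGF-beta ligands that is also abundant in endothelium, did not pass the test. It stood at 10.6, 29.7, 6.57, 4.59 and 4.99 CPM in CD90-negative libraries of pools 1 to 5, against 67.0, 28.1, 10.8, 28.3 and 39.3 CPM in CD90-positive libraries. The CD90-negative library of pool 2 was the one that lay above its partner, and the values of the fractions overlapped. The log2 fold was -1.79 (SE 0.49, edgeR adjusted p = 0.0509, just past the threshold of 0.05). Without pool 2 it was -2.26 and passed (adjusted p = 0.0162). The same CD90-negative library had the highest summed level of 13 endothelial markers, Eng, Pecam1 and Ly6c1 included, at 383 CPM, against 78.1 to 98.6 CPM in the other CD90-negative and 67.0 to 118 CPM in the CD90-positive libraries. The part of this in the Eng value was not tested.

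**Figure D2:**
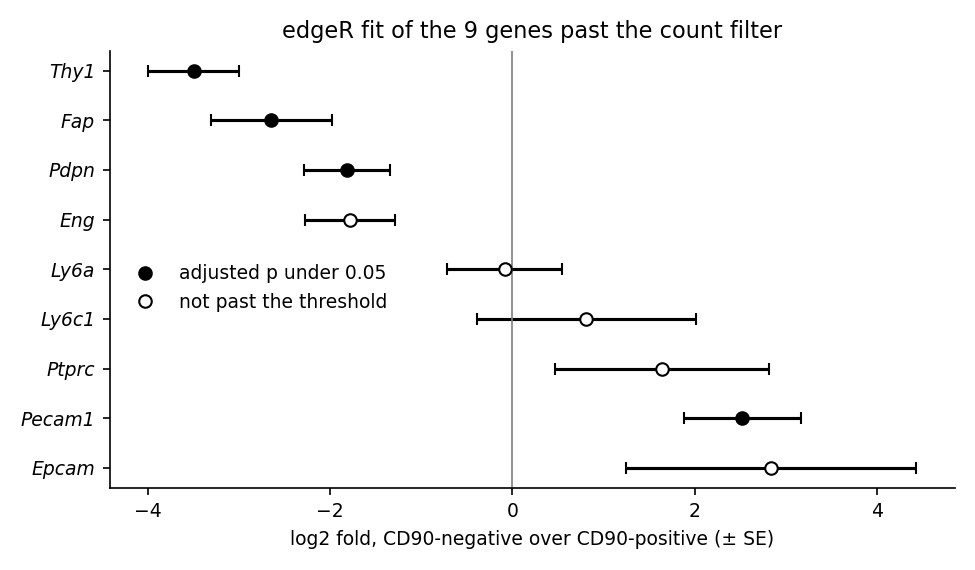
Log2 folds, CD90-negative over CD90-positive, with standard errors for the 9 genes past the count filter, from the edgeR fit with 5 pools. Thy1 (-3.50), Fap (-2.64), Pdpn (-1.82) and Pecam1 (2.52) are filled because their adjusted p was under 0.05.

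Of the 9 genes tested, 3 fell and 1 rose, beside 7.05% of all genes tested that were called lower and 5.83% that were called higher. Thy1 and Fap were lower and Pecam1 was higher without overlap between the fractions, which was so for 4.62% (lower) and 3.32% (higher) of all genes tested. Over all genes tested, 14.5% were lower in the CD90-negative library of 5 of 5 pools and 13.5% were higher in 5 of 5. A count of 5 of 5 pools, here or below, is to be read beside these shares. Thy1 encodes the protein by which the cells were sorted, so its call and its lack of overlap are not independent of the sort. The other genes called lower were Fap and Pdpn. The count of genes called lower was 1 without pool 1, without pool 4, without pools 4 and 5 together or without the block, and the count called higher was 0 without pool 1, 2, 3 or 4 or without pools 4 and 5.

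Because collagen and other fibroblast genes fell too, Thy1 was also compared with fibroblast genes of the same library, as a ratio of counts that does not depend on library scaling. The log2 ratio of Thy1 over Pdpn averaged -1.66 ± 1.41 in CD90-negative and 0.08 ± 0.93 in CD90-positive libraries (SD, n = 5 each), a difference of -1.74 that was negative in 5 of 5 pools (exact paired permutation test, two-sided, p = 0.0625, adjusted p = 0.104 over 5 ratios). The smallest p that 5 pairs allow is 0.0625, so this test cannot pass 0.05. The difference was -1.52 ± 1.23 for Thy1 over Pdgfra, a PDGF receptor of fibroblasts, and -0.78 ± 0.51 for Thy1 over Fap (SD of the pool differences, n = 5), again negative in 5 of 5 pools (exact p = 0.0625, adjusted p = 0.104 for both). For Pdgfra, the 5 of 5 includes pool 2 at -0.02, where Thy1 and Pdgfra fell by nearly the same amount. The Fap ratio rests on 1 Fap read in the CD90-negative library of pool 5. With a pseudocount of 0.5 in place of 1 it was negative in 4 of 5 pools, with pool 5 at 0.18 and a mean of -0.69 (exact p = 0.125), and on deposited TPM the mean was -1.86. Without pools 4 and 5, the mean over Pdgfra was -0.77. Against Pdgfrb, the PDGF receptor of fibroblasts and pericytes, it was -0.67 ± 0.57, and against Col1a1 -1.24 ± 1.01 (exact p = 0.125, adjusted p = 0.125 for both). The Col1a1 value was -0.72 without pools 4 and 5 and -0.80 on deposited TPM. In pool 1 the differences against Pdgfrb and Col1a1 were 0.26 and 0.13, so that Thy1 fell no more there between the fractions than Pdgfrb or Col1a1 did.

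**Figure D3:**
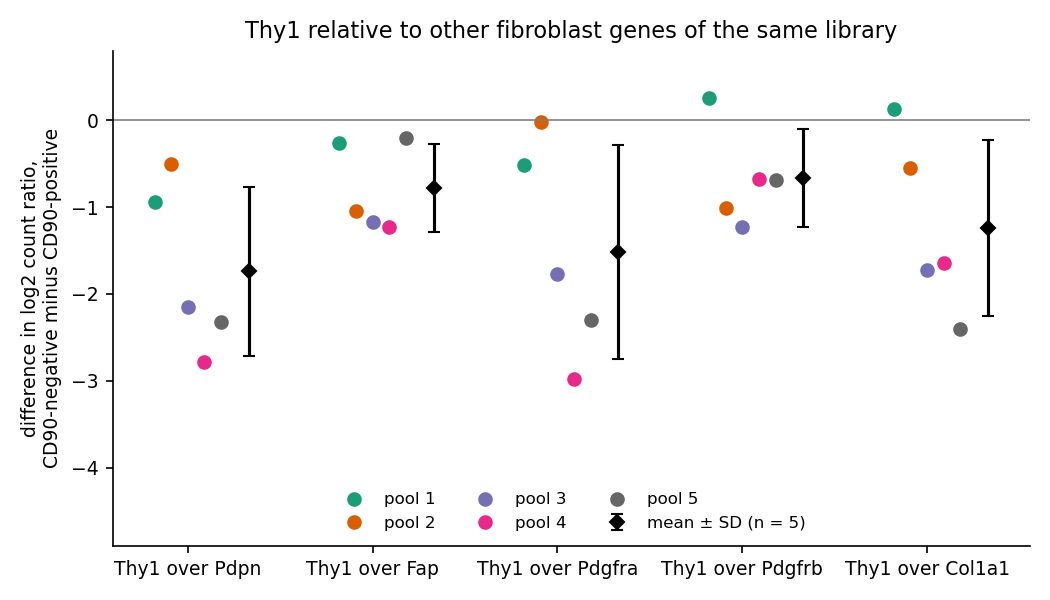
Difference in the log2 count ratio of Thy1 over each of 5 fibroblast genes, CD90-negative minus CD90-positive, for each pool (circles) and as mean ± SD over 5 pools (diamonds). With the pseudocount of 1 used here all pools lie below 0 for Pdpn, Fap and Pdgfra (Fap in pool 5 is at 0.18 with 0.5). Pool 2 lies at -0.02 for Pdgfra, and pool 1 lies at 0.26 for Pdgfrb and 0.13 for Col1a1.

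Nearly all Thy1 reads were assigned to 1 transcript. Thy1-201, a protein-coding transcript of 1735 bases, held 92.2% of the Thy1 estimated counts over all libraries, counting the transcripts that could be named. In CD90-negative libraries of pools 1 to 5, Thy1-201 took 88.0%, 94.4%, 87.0%, 82.1% and 66.1% of Thy1 reads (estimated counts rounded to whole reads), against 94.7%, 91.1%, 94.3%, 90.5% and 95.6% in CD90-positive libraries. The 66.1% of pool 5 rests on 37 of 56 reads, with a 95% Wilson interval of 53.0% to 77.1%, and the 82.1% of pool 4 on 46 of 56 reads (70.2% to 90.0%). These intervals cover counting error only. The mean difference was -9.90 percentage points, with a lower share in 4 of 5 pools (exact paired permutation p = 0.125), and it was -4.97 points without pool 5. Of the 5 other transcripts, the retained-intron Thy1-202 held 1.10% of all Thy1 counts, the processed transcript Thy1-203 1.05%, and the protein-coding Thy1-204, Thy1-205 and Thy1-206 held 2.43%, 2.23% and 1.02%. Thy1-204 was assigned 9.74 estimated reads, 17.3% of the Thy1 counts, in the CD90-negative library of pool 5 and 0 in the other CD90-negative libraries, against 1.36% to 4.41% of the Thy1 counts in CD90-positive libraries, and the gene as a whole had 1289 reads in CD90-negative and 12931 in CD90-positive libraries.

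**Figure D4:**
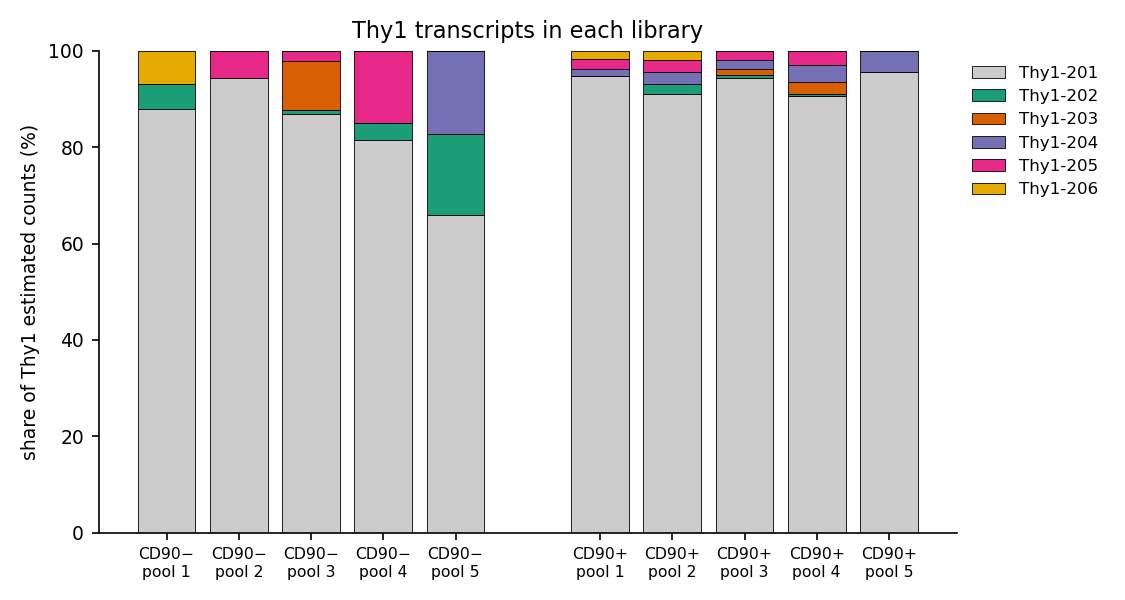
Share of the Thy1 estimated counts on each of 6 Thy1 transcripts, in the 5 CD90-negative libraries (left) and the 5 CD90-positive libraries (right). Thy1-201 takes 81.4% or more in all libraries but the CD90-negative one of pool 5, where it takes 66.0%.

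Other genes differed in how far their reads could be placed on transcripts. Pdpn-201 held 97.4% and Epcam-204 96.8% of the counts of their genes. Over all libraries, Eng reads were mostly on the protein-coding Eng-201 (44.1%) and Eng-202 (49.8%), with Eng-201 at 0%, 88.7%, 71.2%, 0% and 17.0% of Eng counts in CD90-negative libraries of pools 1 to 5 and at 18.5% to 64.8% in CD90-positive libraries. The protein-coding Eng-205 took 58.4% in the CD90-negative library of pool 1 and 100% in that of pool 4, which holds 43 Eng reads. Fap-202 held 67.4%, Fap-205 12.1% and Fap-201 10.1% of Fap counts. For Pecam1, Pecam1-203 held 34.7%, all of it in CD90-negative libraries of pools 2 and 3, while Pecam1-201 (26.0%) and the retained-intron Pecam1-208 (18.7%) were found in 10 of 10 libraries. Ptprc-204 held 92.9% of the Ptprc counts and Ly6a-204 70.2% of the Ly6a counts, beside Ly6a-201 with 19.2%.

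The Ly6 genes, which encode small GPI-anchored proteins and lie together on chromosome 15, are the members whose reads are hardest to tell apart. Their sequences are shown because the Ly6C antigen is the product of 2 nearly identical genes, and reads from a shared stretch cannot be assigned to either one. Below are the coding bases 1 to 150 of Ly6c1-201 and Ly6c2-201 (GENCODE M21, GRCm38, minus strand of chromosome 15), 5′ to 3′, with the 6 positions that differ in capitals.
Ly6c1-201: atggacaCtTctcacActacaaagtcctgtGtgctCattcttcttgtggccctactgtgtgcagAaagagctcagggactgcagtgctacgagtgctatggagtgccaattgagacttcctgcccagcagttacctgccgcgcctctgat
Ly6c2-201: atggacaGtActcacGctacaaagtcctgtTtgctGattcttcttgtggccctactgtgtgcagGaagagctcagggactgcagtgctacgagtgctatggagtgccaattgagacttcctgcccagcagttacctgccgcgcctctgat
Over all 393 coding bases they differ at 9 positions (97.7% identity), and their longest identical run has 188 bases. Ly6c1-201 and Ly6a-201, the transcript of Sca-1, are 81.8% identical over their coding sequences. Of the 31-base words of Ly6c1-201, 57.1% also occur in transcripts of another gene, and the shares are 53.8% for Ly6c2-201 and 22.2% for Ly6a-201, against 0% for Thy1-201, Fap-202, Epcam-204, Ptprc-204 and Pecam1-201.

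Both Ly6C genes were close to the detection floor in both fractions. Ly6c1 (ENSMUSG00000079018) had 3, 7, 29, 6 and 20 reads in CD90-negative libraries of pools 1 to 5, against 3, 14, 19, 13 and 0 reads in CD90-positive libraries. That is 0.10 to 0.74 CPM in CD90-negative and at most 0.40 CPM in CD90-positive libraries, where a floor of 3 reads corresponds to 0.059 to 0.32 CPM in CD90-negative and 0.045 to 0.29 CPM in CD90-positive libraries. The log2 fold was 0.81 (SE 1.20, edgeR adjusted p = 0.73), and a difference was not detectable at this depth. Ly6c2 (ENSMUSG00000022584) was listed at 0 in 4 of 5 libraries of each fraction and had 3 reads in 1 CD90-negative library (pool 3) and 3 in 1 CD90-positive library (pool 5), all on the retained-intron transcript Ly6c2-202. With both genes summed, the CD90-negative libraries held 3, 7, 32, 6 and 20 reads, against 3, 14, 19, 13 and 3 reads in the CD90-positive libraries.

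Ly6a (ENSMUSG00000075602), which encodes Sca-1, a marker of mouse stem and progenitor cells and of some fibroblasts, was low and showed no common direction. It measured 3.51, 1.78, 1.33, 5.98 and 3.10 CPM in CD90-negative libraries of pools 1 to 5, against 4.01, 1.91, 1.60, 1.20 and 12.0 CPM in CD90-positive libraries. CD90-negative values were lower in 4 of 5 pools and 5.00-fold higher in pool 4. The log2 fold was -0.09 (SE 0.63, edgeR adjusted p = 0.95) and turned to 0.35 without pool 5 (adjusted p = 0.78). In the wider family, 24 genes of the Ly6 and uPAR domain list were in the annotation, 8 passed the count filter, 1 fell and 1 rose (median log2 fold -0.33). Over all genes tested, 7.05% were called lower and 5.83% higher. Cd59a, an inhibitor of complement, fell by 2.14 on the log2 scale (SE 0.48, edgeR adjusted p = 0.0186), and Ly6e rose by 0.67 (SE 0.18, adjusted p = 0.0342). Lynx1 (-1.47, adjusted p = 0.0625) and Plaur, the urokinase receptor (0.18, adjusted p = 0.48), did not pass. Ly6d, Ly6f, Ly6g, Lypd3 and Gml were listed at 0 in 10 of 10 libraries. The call of Cd59a was lost without pool 1 or 4 (adjusted p = 0.0926 and 0.0709), and that of Ly6e without pool 1, 2, 4 or 5 (0.0764 to 0.116), without the block (0.0694) and with a transcript length offset (0.195).

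Genes of cells that a fibroblast gate is meant to leave out were next. Pecam1 (ENSMUSG00000020717, chromosome 11), the adhesion molecule CD31 of endothelium and platelets, was higher in the CD90-negative library of all 5 pools. Its values were 5.27, 31.6, 8.69, 8.33 and 10.0 CPM in CD90-negative libraries of pools 1 to 5, against 2.28, 0.84, 0.80, 1.9 and 5.11 CPM in CD90-positive libraries. The lowest CD90-negative value, of pool 1, lay just above the highest CD90-positive value, of pool 5. Pecam1 rose by a log2 fold of 2.52 (SE 0.64, edgeR adjusted p = 0.0351), with pool folds between 1.97 in pool 5 and 37.5 in pool 2. The call was lost without pool 1, 2, 3 or 4 (adjusted p = 0.0651, 0.0547, 0.0859 and 0.0835). Of 12 endothelial markers tested, 4 rose and 0 fell (median log2 fold 1.79): Tie1, an endothelial receptor kinase (4.75, SE 1.04, adjusted p = 0.0163), Flt1, a VEGF receptor (1.65, SE 0.36, adjusted p = 0.0187), Cdh5, the cadherin of endothelial junctions (4.86, SE 1.07, adjusted p = 0.0251), and Pecam1 itself. Eng (-1.79) and Kdr, another VEGF receptor (-0.70, adjusted p = 0.0780, named after its values were seen), were lower in 4 of 5 pools and did not pass. The main fit called 7.05% of all genes tested lower and 5.83% higher. DESeq2 called 2 endothelial genes lower and 5 higher. The summed endothelial level was higher in the CD90-negative library of 3 of 5 pools. Cdh5 averaged 19.0 CPM in CD90-negative and 0.42 CPM in CD90-positive libraries, with 62.2 CPM in the CD90-negative library of pool 2 and 7.72 to 8.64 CPM in the other CD90-negative ones. Fewer of the 4 calls held with a pool left out: 1 without pool 1 or 2, 2 without pool 3 or 4, 3 without pool 5 and 0 without pools 4 and 5.

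Epcam (ENSMUSG00000045394, chromosome 17), an adhesion molecule of epithelia and carcinomas, was found in all 10 libraries and varied widely between the pools of a fraction. It stood at 69.4, 8.52, 5.19, 44.5 and 140.5 CPM in CD90-negative libraries of pools 1 to 5, against 0.84, 20.2, 0.63, 0.64 and 94.7 CPM in CD90-positive libraries. The CD90-negative library was higher by 82.8-fold in pool 1 and 69.1-fold in pool 4, by 8.19-fold in pool 3 and by 1.48-fold in pool 5, and in pool 2 it was lower. The CD90-positive library of pool 5 held more Epcam than 4 of the 5 CD90-negative libraries. The log2 fold of 2.84 (SE 1.59) did not pass in edgeR (adjusted p = 0.34). DESeq2 called it (adjusted p = 0.0281), as did edgeR with no filter on low counts, and with that rRNA share in the fit it was -1.84 (adjusted p = 0.90).

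Of 11 epithelial markers tested, 8 rose and 0 fell, with a median log2 fold of 2.10, beside 5.83% of all genes tested called higher. The 3 not called were Epcam and, named after their values were seen, the claudins Cldn7 (3.88, SE 1.57, higher in 4 of 5 pools) and Cldn4 (2.10, SE 1.5, higher in 3 of 5 pools). The keratins Krt18 (2.04, SE 0.23, edgeR adjusted p = 0.00185) and Krt8 (1.48, SE 0.20, adjusted p = 0.0034), the mucin Muc1 (2.62, SE 0.34, adjusted p = 0.0038) and the tetraspanin Tspan8 (2.07, SE 0.41, adjusted p = 0.0139) were higher in 5 of 5 pools. Krt18 averaged 570 ± 238 CPM in CD90-negative and 158 ± 111 CPM in CD90-positive libraries (SD, n = 5). The summed level of 12 epithelial markers was 2562, 1329, 726, 2297 and 3005 CPM in CD90-negative libraries of pools 1 to 5, against 395, 555, 182, 523 and 1644 CPM in CD90-positive libraries. Both fractions of pool 5 were thus the highest of their fraction, as they were for Epcam. The number called was 0 without the block for the pool, and 5 without pool 3, without pool 4 or without pools 4 and 5 together.

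Ptprc (ENSMUSG00000026395, chromosome 1), the phosphatase CD45 of leukocytes, was near the floor. It had 51, 7, 26, 22 and 33 reads in CD90-negative libraries of pools 1 to 5, against 5, 18, 19, 31 and 0 reads in CD90-positive libraries. This corresponds to 1.76, 0.23, 0.51, 2.35 and 1.22 CPM in CD90-negative and 0.23, 0.45, 0.29, 0.95 and 0 CPM in CD90-positive libraries, which overlapped. The log2 fold of 1.64 (SE 1.17) did not pass (edgeR adjusted p = 0.43). Among 18 leukocyte markers, 7 passed the count filter, and 1 of them, the integrin Itgam of myeloid cells, rose (log2 fold 2.68, SE 0.65, adjusted p = 0.0268, median of the list 0.51). Itgam was higher in 4 of 5 pools, at 2.44, 7.21, 0.53, 38.1 and 14.5 CPM in CD90-negative libraries of pools 1 to 5, against 0.47, 0.92, 0.68, 2.92 and 0.79 CPM in CD90-positive libraries. Its call was lost without pool 1, 2, 4 or 5 (adjusted p = 0.0836 to 0.151), without the block (0.0664) and with a transcript length offset (0.0967). Over all genes tested, 5.83% were called higher. Cd68 (0.51, adjusted p = 0.52) and Lyz2 (1.04, adjusted p = 0.57), genes of macrophages, did not pass. The cytotoxic granule gene Nkg7 and the neutrophil gene Ly6g were listed at 0 in 10 of 10 libraries. Fcgr3 (-0.51, adjusted p = 0.66) and Csf1r (0.06, adjusted p = 0.97) were lower in 3 of 5 pools. Cd79a (0.45, adjusted p = 0.88) was higher in 3 of 5, and these 3 genes were named after their values were seen. The summed leukocyte level was 15.4 to 69.4 CPM in CD90-negative and 11.0 to 18.1 CPM in CD90-positive libraries. It was higher in the CD90-negative library of 3 of 5 pools. The 69.4 CPM was that of pool 4, where Itgam held 38.1 CPM and Lyz2 12.1 CPM.

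**Figure D5:**
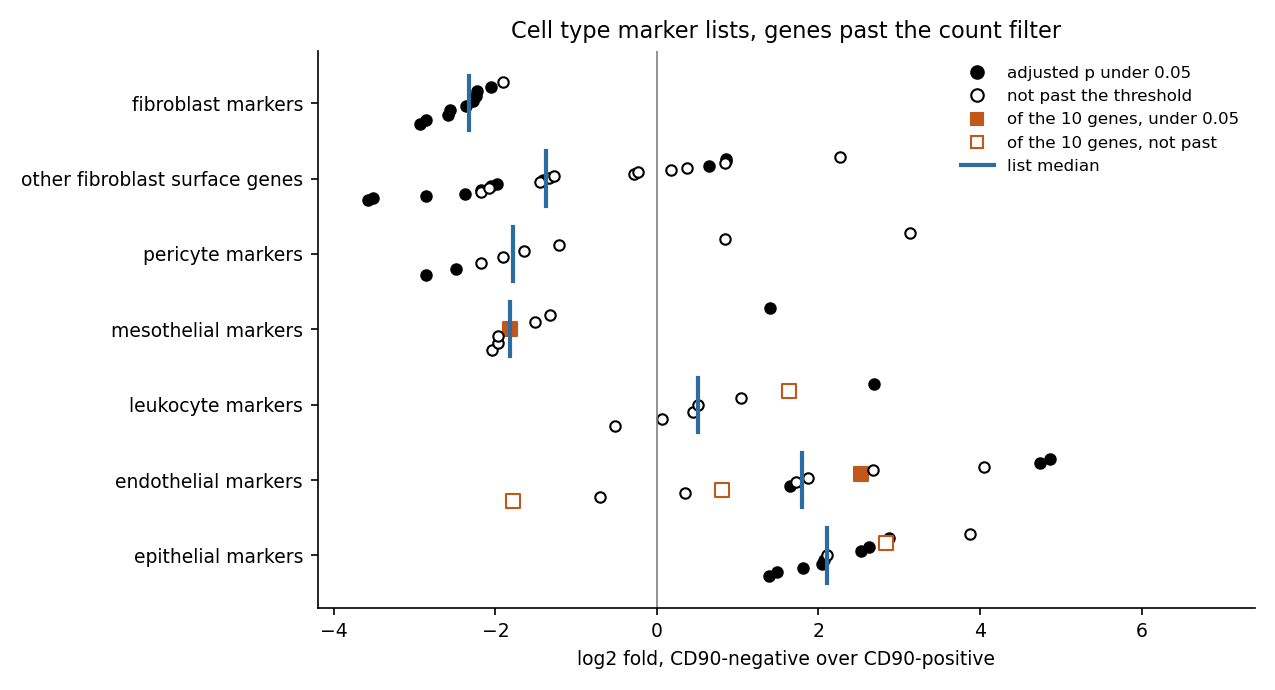
Log2 folds, CD90-negative over CD90-positive, of the tested genes in 7 marker lists. Filled symbols have an adjusted p under 0.05, squares are genes among the 10 described, and bars are list medians, which run from -2.32 for fibroblast markers up to 2.10 for epithelial markers.

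Compared per length, the order of the 10 genes differed between the fractions. Levels here are medians of TPM rescaled over nuclear protein-coding genes. In CD90-negative libraries the order was Epcam (114), Pdpn (97.3), Thy1 (36.8), Pecam1 (27.7), Ly6a (21.9), Eng (9.32), Ly6c1 (4.36), Fap (2.80), Ptprc (1.42) and Ly6c2 (0), and each neighbouring pair but Ptprc and Ly6c2 overlapped in range. In CD90-positive libraries it was Thy1 (343), Pdpn (243), Eng (41.9), Fap (16.1), Ly6a (14.8), Pecam1 (3.84), Epcam (3.16), Ly6c1 (2.96), Ptprc (0.32) and Ly6c2 (0), and Pdpn and Eng were the one neighbouring pair whose ranges did not overlap. Thy1 was thus the top gene by median in CD90-positive and lay below Epcam and Pdpn in CD90-negative libraries.

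Other surface genes by which fibroblasts are sorted or described went in both directions. Of 22 tested, 8 fell and 3 rose, with a median log2 fold of -1.37, beside 7.05% (lower) and 5.83% (higher) of all genes tested. Lrrc15, a surface protein of TGF-beta-driven myofibroblasts, was lower by -3.52 on the log2 scale (SE 0.54, edgeR adjusted p = 0.0048), the collagen-binding integrin chain Itga11 by -3.57 (SE 0.62, adjusted p = 0.0091), the cadherin Cdh11 by -2.37 (SE 0.38, adjusted p = 0.0068) and Cd248 (endosialin) by -2.18 (SE 0.36, adjusted p = 0.0078). Itga11 averaged 3.26 ± 2.96 CPM in CD90-negative and 28.9 ± 6.48 CPM in CD90-positive libraries (SD, n = 5). The 3 that rose (chosen for naming after seeing their values) were the tetraspanin Cd9 (0.86), the ecto-nucleotidase Nt5e, known as CD73 (0.85), and the hyaluronan receptor Cd44 (0.64), each higher in 5 of 5 pools. With single pools left out, 4 to 8 genes were called lower and 0 to 3 higher. Without pools 4 and 5 the numbers were 3 and 0, and Cdh11 (adjusted p = 0.0619) and Cd248 (0.0564) were among those no longer called. Lrrc15 and Itga11 were called with any single pool left out.

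Binding partners of CD90 and podoplanin were changed in part. Of 11 tested, 1 fell and 4 rose (median log2 fold -0.03), beside 7.05% (lower) and 5.83% (higher) of all genes tested. Itgb5, an integrin chain that pairs with the alpha-v chain, was lower, at 45.2 ± 15.6 CPM in CD90-negative and 169 ± 36.7 CPM in CD90-positive libraries (SD, n = 5; log2 fold -1.94, SE 0.24, edgeR adjusted p = 0.0026). Cd44 (0.64), Itgam (2.68) and the membrane-actin linker Ezr (1.02, adjusted p = 0.0370) rose, as did Adgre5, the adhesion receptor CD97 (0.80, adjusted p = 0.0466, named after its values were seen). The call of Itgb5 held with each pool left out, whereas 0 of the 4 higher calls held without pool 1, 2, 4 or 5. Clec1b, the platelet receptor of podoplanin, had too few reads to be tested.

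Genes of the endoglin receptor complex and its targets were lower in part. Of 12 tested, 4 fell and 1 rose (median log2 fold -0.36). For this list and the FAP peptidase family, the shares over all genes tested were 7.05% lower and 5.83% higher. The TGF-beta receptor Tgfbr2 had a log2 fold of -1.44 (SE 0.19, edgeR adjusted p = 0.0028), the target Id3 of -1.86 (SE 0.33, adjusted p = 0.0081) and the inhibitory Smad6 of -0.73 (SE 0.19, adjusted p = 0.0334). Id2, another inhibitor of helix-loop-helix factors, rose by 1.30 (SE 0.22, adjusted p = 0.0058). The other gene called lower was Acvrl1 (-1.39, adjusted p = 0.0365). Its call was lost without pool 1, 4 or 5 (0.0932 to 0.161) and without the block (0.132). Id1 (0.26, adjusted p = 0.44, higher in 5 of 5 pools) and Smad7 (0.17, adjusted p = 0.48, higher in 4 of 5) were not called. Acvrl1, Id1 and Smad7 were named after their values were seen. The ligand gene Bmp10 was listed at 0 in 10 of 10 libraries. Smad6 was not called without pool 1, 2, 4 or 5 (adjusted p = 0.0613 to 0.111), without the block (0.0944) or with a transcript length offset (0.178), and Id3 not without the block (0.0582) or without pools 4 and 5 (0.0808). Tgfbr2 and Id2 were called with any single pool left out. In the FAP peptidase family 2 of 7 tested genes fell, Fap and Dpp6 (-3.00, SE 0.79, adjusted p = 0.0347), while Prep (0.32, adjusted p = 0.28) and Dpp7 (0.63, adjusted p = 0.30) did not pass. Dpp6 was not called without pool 1, 2, 4 or 5 (0.0614 to 0.171).

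Pericytes and mesothelial cells share surface proteins with fibroblasts. Of 8 pericyte markers tested, 2 fell, the intermediate filament gene Des (-2.48, SE 0.43, edgeR adjusted p = 0.0089) and Pdgfrb (-2.86, SE 0.54, adjusted p = 0.0152), and 0 rose (median log2 fold -1.78). Kcnj8 (-1.90, adjusted p = 0.0617) and Cspg4 (-2.18, adjusted p = 0.0825) did not pass. Opposite values, named after they were seen, were those of Rgs5 (3.14, adjusted p = 0.11, higher in 5 of 5 pools) and Mcam (0.84, adjusted p = 0.43, higher in 4 of 5 pools). Without the block, by DESeq2, by limma-voom and with no count filter, 1 pericyte gene was called higher each time. In the same settings 2, 6, 4 and 5 pericyte genes were called lower. Pdgfrb was not called without pool 1 (adjusted p = 0.0617), and without pool 2 the list had 4 genes called lower. Of 7 mesothelial markers, Pdpn fell and Msln, a gene of mesothelium that pancreatic carcinomas also express, rose, at 126 ± 37.6 CPM in CD90-negative and 56.4 ± 44.3 CPM in CD90-positive libraries (SD, n = 5; log2 fold 1.40, SE 0.25, adjusted p = 0.0077). Without the block neither Pdpn nor Msln was called (adjusted p = 0.310 and 0.151). Wt1 (-1.96, adjusted p = 0.0740) and Upk3b (-2.04, adjusted p = 0.13) were lower in 5 of 5 pools and were not called. Lrrn4 (-1.32), Upk1b (-1.51) and Gpm6a (-1.97), named after their values were seen, were lower in 4 of 5 pools and were not called. The list median was -1.82, and DESeq2 called 5 of the 7 lower and 1 higher. For both lists, the shares over all genes in the main fit were 7.05% lower and 5.83% higher.

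A search for genes whose levels across the 10 libraries were most like those of Thy1 and Epcam took 6834 genes whose log2 CPM averaged 3 or more. Genes with Gm-numbered or Rik symbols and pseudogenes were left out of the search. The highest Pearson correlations of log2 CPM with Thy1 were those of the protease gene Adamts12 (0.99), the matrix glycoprotein Tnc (0.98), Dennd4a (0.98), Lrrc32 (0.98) and the matricellular gene Postn (0.98). The highest for Epcam were those of Rasgrf1 (0.98), the galectin Lgals4 (0.97), the polarity gene Patj (0.96), Tmc4 (0.93) and the myosin Myh14 (0.93). Of the other members, Fap (0.86), Eng (0.83) and Pdpn (0.71) correlated most with Thy1, and Epcam correlated by -0.45 with Thy1. These values are descriptions over 10 libraries that share 5 pools and include the difference between the fractions.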

How the data were processed

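RNA-seq libraries from CD90-negative and CD90-positive myCAFs (5 each) were analysed. Per the labels, libraries were made with the SMART-Seq Stranded kit from very small amounts of RNA that varied in integrity. The authors deposited an estimated count and TPM per transcript, from Salmon 1.9.0 with the builds GRCm39 and mm39, per the submitters' processing notes. Annotation release and strand setting: not given in the sources used here.

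Transcripts were named from GENCODE M21 (GRCm38) by identifier: 133666 of 144584 matched (92.4%), and the others, with 3.63% to 12.1% of a library's counts, were left out. All matched transcripts of the 10 genes had the deposited length in M21. Gene sums and transcript shares cover matched transcripts only, and whether any of the others belong to the 10 genes was not checked. Estimated counts were summed per gene and rounded. The main test was edgeR's robust quasi-likelihood fit (version 4.0.16, R 4.3.3) after filterByExpr and TMM scaling, with the pool as a block and p-values adjusted by Benjamini-Hochberg over all genes tested, with a threshold of 0.05. TPM and effective lengths entered level comparisons and alternatives only. Alternatives used DESeq2 1.42.0, limma 3.58.1 (voom) and other settings. The pipeline was tested on simulated data. Ratios used a pseudocount of 1 and an exact sign-flip test. The titles list different animals for each pool. In tests that hold or pair by the pool, p-values rest on how the difference between the fractions varied over these pools. The spread between animals within a pool does not enter them. No 2 libraries of a fraction agreed within counting noise (chi-square per degree of freedom of at least 39.2).

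Both fractions of a pool come from the same animals by their titles, and the design text calls the samples matched. Within a pool, how the CD90-negative and CD90-positive library departed from the mean of their fraction correlated by 0.06, 0.00, 0.46, 0.03 and 0.19. The members and lists were chosen with earlier results of these data known. Named were the members, the 4 genes of smallest p per list, listed genes at 0 in all libraries, the 5 genes most like Thy1 and Epcam, the genes set under Thy1 in ratios, and genes marked as named after their values were seen. One listed gene is not reported here.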

Additional observations from a re-analysis of the deposited data

Results flagged for a closer look

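In this check 6 values lay apart from the 4 other libraries of their fraction by Dixon's gap test at its 95% critical value, among 32 groups of 5 libraries tested. That critical value assumes normally distributed values, and CPM were tested without a log. The share that chance would flag is therefore not known here. Epcam reached 94.7 CPM in the CD90-positive library of pool 5, against 0.63 to 20.2 CPM in the other CD90-positive libraries, and Ly6a reached 12.0 CPM in the same library, against 1.20 to 4.01 CPM. That library had the lowest total count, and its summed epithelial marker level of 1644 CPM was the highest of its fraction. In the CD90-negative library of pool 2, Pecam1 stood at 31.6 CPM, against 5.27 to 10.0 CPM in the other CD90-negative libraries, and Eng at 29.7 CPM, against 4.59 to 10.6 CPM. The endothelial genes Vwf (125 CPM, against 1.66 to 4.18 CPM) and Cdh5 (62.2 CPM, against 7.72 to 8.64 CPM), named after their values were seen, were also highest there among CD90-negative libraries, as was the pericyte gene Rgs5 (30.2 CPM, against 0.70 to 2.83 CPM). Their part in the Pecam1 and Eng values was not tested. Ly6c2 was flagged in the CD90-negative library of pool 3 (0.059 CPM) and in the CD90-positive library of pool 5 (0.29 CPM) because it was listed at 0 in the others, and each value rests on 3 reads.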

How the results depend on the processing

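Thy1 kept its direction under all alternatives, with -3.83 to -3.03 when a pool was left out. It kept its call under all but the mitochondrial rRNA share as a covariate (log2 fold -4.12). That share was higher in the CD90-negative library of each pool, so the covariate is confounded with the fraction. Over all genes, 896 were called higher and 1084 lower. These counts became 421 and 544 with no replicate block for the pool, 1623 and 1809 with DESeq2, 0 and 0 with the covariate (882 genes at an unadjusted p under 0.05), 357 and 184 without pools 4 and 5, and 308 and 396 at a threshold of 0.01, and ran from 308 to 820 and from 367 to 1199 with a pool left out. Of the 10 genes, 3 were called lower and 1 higher. The numbers were 1 and 1 without the block, 0 and 0 with the covariate, 1 and 0 without pools 4 and 5 or at 0.01, 4 and 2 with DESeq2 or with no filter on low counts, and 1 to 3 and 0 to 1 with a pool left out. Eng was called lower by DESeq2, limma-voom, no count filter, protein-coding genes only, mitochondrial genes left out and the length offset (adjusted p up to 0.0472). The sign turned for Ly6c1 without pools 4 and 5 (-0.0026), Ly6a without pool 5 (-0.64 to 0.35 with a pool left out) and Epcam with the covariate (-1.84), none of them called, and the cause was not tested. The Thy1 ratio to Pdpn ran from -2.05 to -1.48 and the Thy1-201 share from -13.2 to -4.97 points with a pool left out, and the share difference was -16.4 points on deposited TPM. Ratios of Thy1 to the other 4 genes stayed negative on average. Depth limits Ly6c1, Ly6c2 and Ptprc, which had 0 to 51 reads per library.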
